A study of Mus musculus with 12 samples.

Results

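The genes described here are used to mark cells beneath the retinal pigment epithelium (RPE), in the vessel walls and connective tissue of the choroid. They are 5 genes of contractile cells (*Myh11*, *Acta2*, *Tagln*, *Cnn1* and *Des*), 2 genes of pericytes (*Pdgfrb* and *Rgs5*) and 3 genes of fibroblasts (*Pdgfra*, *Dcn* and *Lum*). They were chosen by symbol, and all 10 were found among the 28591 genes of the table. RNA was sequenced from the RPE of 6 wild-type mice (WT, C57BL/6J) and of 6 rd6 mice, which are homozygous for the rd6 allele of *Mfrp*, all 1 mo old. *Mfrp* encodes a membrane frizzled-related protein of the RPE, and the rd6 allele is carried in every cell of the animal. The RPE was released from opened eyecups after removal of the anterior segment and retina, and the RPE of both eyes was combined in 1 library. The choroid lies directly under the RPE in such an eyecup, with the sclera and the eye muscles outside it.

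Smooth muscle cells form a ring around arteries and arterioles and set the width of the vessel with actin and myosin filaments. Pericytes sit on capillaries, are recruited by platelet-derived growth factor (PDGF) from endothelial cells, and are known for supporting the capillary wall. Fibroblasts of the choroidal stroma lay down collagen, whose fibrils are spaced by small leucine-rich proteoglycans such as decorin and lumican. In bulk RNA of this kind, fewer cells of a type and less RNA per cell cannot be told apart.

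Values are normalized read counts, which are reads counted on a gene divided by the size factor of the library. Between 28907262 and 33152725 reads were counted per library, and the totals of WT and rd6 libraries gave a two-sided p of 0.963 in an exact permutation test (n = 6 each). The 10 genes together took between 0.0431% and 0.0674% of these reads. *Rgr*, *Rlbp1*, *Rpe65* and *Lrat*, the most abundant of the 8 RPE markers, stood far above them, while *Best1* was low (19.2 ± 7.94 in WT and 29.2 ± 12.7 in rd6, SD, n = 6 each). The 8 markers summed to between 846557 and 1242500 normalized counts in WT and between 527702 and 763739 in rd6 libraries. *Mfrp* itself was lower in rd6, with no overlap between the genotypes (log2 fold change -0.63, limma, Benjamini-Hochberg q = 0.00126). *Xist*, which marks female cells, was between 10783 and 21004 normalized counts in WT replicates 3 and 4 and in rd6 replicates 1 and 2, and at or under 57.6 in the others, so each genotype held 2 libraries of this kind.

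Several libraries stood apart. The 6 markers of corneal and ocular surface epithelium summed to 214936 normalized counts in WT replicate 4, 89432 in rd6 replicate 5 and 53754 in rd6 replicate 1, and to between 315 and 14767 in the other 9 libraries. Of these 6 genes 0 passed the test, at q between 0.354 and 0.939. Among the rd6 libraries, replicates 1 to 3 lay above replicates 4 to 6 for 5 of the 10 genes, a division that no label describes. The fit was repeated without the 3 libraries with most corneal RNA (WT replicate 4 and rd6 replicates 1 and 5), without rd6 replicates 1 to 3 and without rd6 replicates 4 to 6, each with fewer libraries than the full comparison.

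The contrast of rd6 with WT asks which of these 10 genes differ in mice with the rd6 allele. One of them, *Des*, is also made in skeletal muscle, whose markers are given below. *Des* rose and *Pdgfra* fell, and the other 8 genes did not pass the test (limma on log2 of the value plus 1, q below 0.05). The higher share was thus 1 of 10 genes, against 11.4% of all 17768 genes tested, and the lower share 1 of 10 against 11.6%. At the additional limit of a 1.75-fold change both genes still counted, against 4.69% of all genes higher and 2.12% lower. *Des* alone had every rd6 library above every WT library, which 5.77% of all genes had, and 0 of the 10 had every rd6 library below, which 5.67% had. These shares do not set the 10 genes apart from the genes as a whole.

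**Figure D1:**
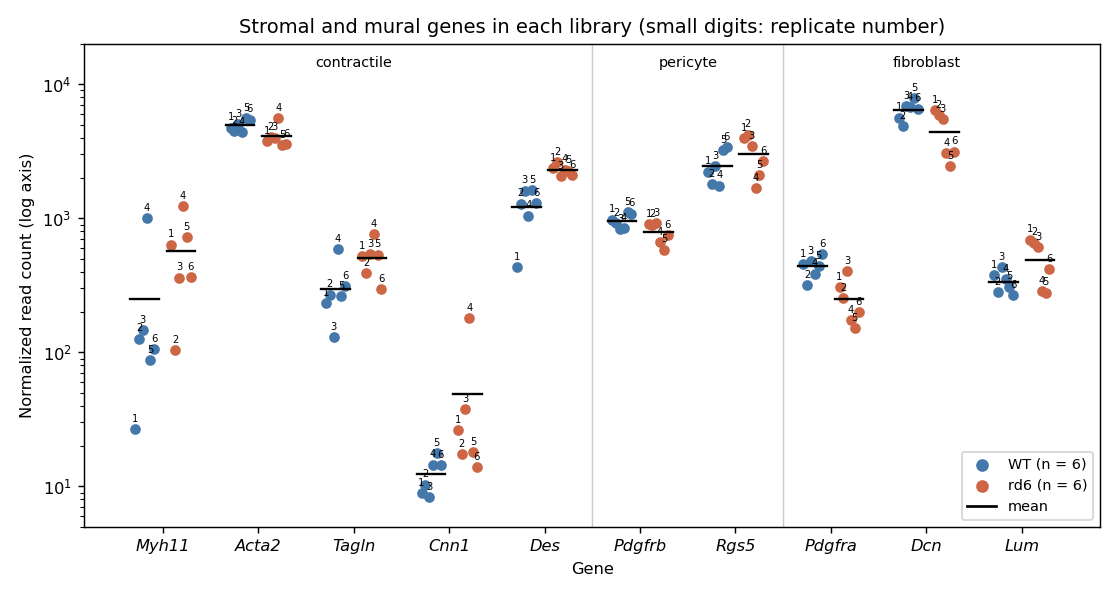
Normalized read count (log axis) of the 10 genes in the 6 WT (blue) and 6 rd6 (orange) libraries, with the mean as a line and the replicate number beside each point. All 6 rd6 libraries of *Des* sit above the 6 WT libraries, *Myh11* spans 26.6 to 1236, and rd6 replicates 4 to 6 sit lowest for *Pdgfra* and *Dcn*.

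**Figure D2:**
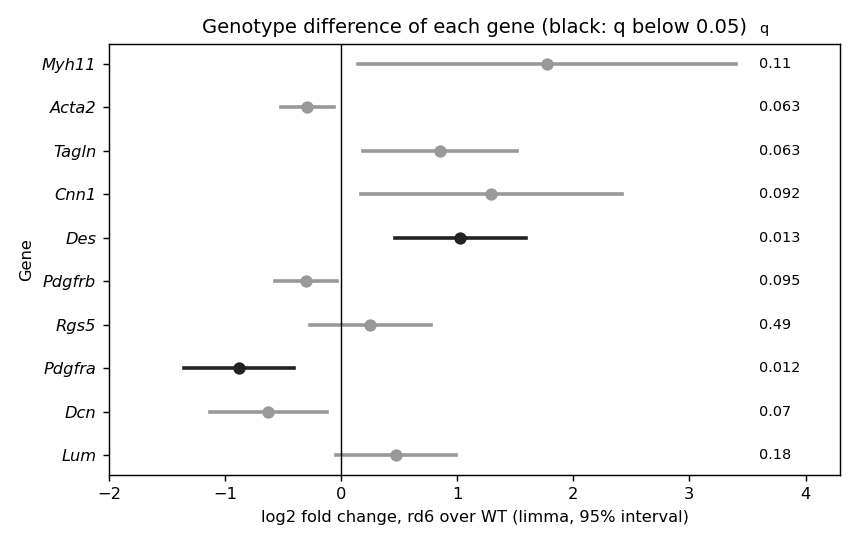
Log2 fold change of rd6 over WT with its 95% interval (limma, n = 6 per group), with q at the right; black marks the genes with q below 0.05. *Des* lies at 1.03 and *Pdgfra* at -0.88, and the interval of *Myh11* is the widest, from 0.15 to 3.40.

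Compared per kilobase of exon, so that long and short transcripts can be set side by side, the genes differed over a wide range of levels. *Acta2* was highest at 2061 normalized counts per kb over the 12 libraries, above 95.6% of the genes tested. *Dcn* followed at 932, *Rgs5* at 604 and *Des* at 468. *Tagln* stood at 203, *Lum* at 169 and *Pdgfrb* at 160, and these 3 are close. *Myh11* at 54.1, *Pdgfra* at 34.2 and *Cnn1* at 11.2 were lowest. Part of this order differed between the genotypes. *Pdgfra* was above *Myh11* in WT (43.7 against 32.9 per kb) and below it in rd6 (24.8 against 75.2). *Pdgfrb* was above *Tagln* and *Lum* in WT (176 against 150 and 137) and below both in rd6 (144 against 256 and 201). The level of *Acta2* was thus far above that of *Myh11*, the other classic smooth muscle gene, in these libraries.

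Among the contractile genes, *Des* encodes desmin, the intermediate filament of muscle cells, and lies on chromosome 1 at 75360329 to 75368579, plus strand (GENCODE M21, GRCm38). Its normalized count was 435, 1296 and 1616 in the lowest, median and highest WT library and 2058, 2293 and 2631 in the rd6 libraries. The groups did not overlap, WT replicate 1 was far below the other WT libraries, and the rd6 libraries were close together, with a coefficient of variation of 8.92% against 36.1% in WT. The mean went from 1217 ± 440 to 2295 ± 205 (SD, n = 6 each), which was 1.03 on the log2 scale (SE 0.26, limma q = 0.0132). With rd6 replicates 1 to 3 or 4 to 6 left out the log2 fold change was 0.99 (q = 0.103) or 1.06 (q = 0.0784), and without WT replicate 4 and rd6 replicates 1 and 5 it was 1.00 (q = 0.0542). An antisense transcript shares 220 bases of its exons, and whether strand was used in counting is not given in the sources used here.

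Desmin is made in skeletal as well as smooth muscle, and skeletal muscle markers moved with it. Of 10 such markers 6 were higher in rd6 and 0 lower, among them *Myh2* (log2 fold change 1.54), *Pvalb* (1.12) and *Mylpf* (1.05). *Myh4*, a fast myosin and the highest of them in normalized counts but not per kilobase of exon, was at 0.93. The median log2 fold change of the 10 markers was 0.98. With any of the 3 sets of libraries left out it was between 0.93 and 1.01, and 0 or 1 of the 10 passed. Their sum was between 15941 and 62160 normalized counts in WT and between 58764 and 84748 in rd6, so the groups overlapped only through WT replicate 3. WT replicate 1 was lowest for *Des* and for the sum, and rd6 replicate 2 was highest for both. Per 1000 counts of the sum there were 25.9 to 38.9 counts of *Des* in WT (SD 4.71, n = 6) and 28.0 to 35.0 in rd6 (SD 2.84, n = 6), and the ranges overlapped with means of 30.0 and 31.4. These ratios were chosen after the values were seen and carry no test. The part of skeletal muscle in the rise of *Des* was not tested.

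**Figure D3:**
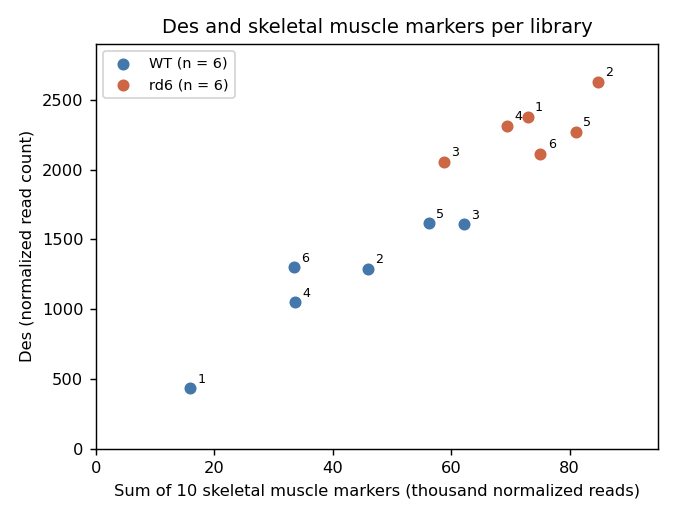
Normalized read count of *Des* against the sum of 10 skeletal muscle markers (in units of 1000) in the 6 WT (blue) and 6 rd6 (orange) libraries, numbered by replicate. The points run from WT replicate 1 (435 for *Des*) to rd6 replicate 2 (2631), and the rd6 libraries lie in the upper part of both axes.

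*Myh11*, the smooth muscle myosin heavy chain, varied most of the 10 genes among WT libraries, while *Cnn1* varied more in rd6 (log2 SD 1.33 against 1.22 for *Myh11*). It was 26.6, 116 and 1008 in the lowest, median and highest WT library and 104, 500.2 and 1236 in rd6. WT replicate 4 was far above the other WT libraries, which ended at 147, and with it 5 of 6 rd6 libraries lay within the WT range, while rd6 replicate 4 was above it. Rd6 replicate 2 was also within the range of the other WT libraries. On the log2 scale the difference was 1.77 (SE 0.75, limma q = 0.110). Without WT replicate 4 it was 2.36 with q = 0.0105, so that 1 library decided whether *Myh11* passed, and it was 2.06 with q = 0.0460 without rd6 replicates 1 and 5 as well. Without rd6 replicates 4 to 6 it was 1.15 with q = 0.463. On recovered reads it was 1.19 with edgeR (q = 0.306) and 1.19 with DESeq2 (q = 0.304), and it passed in 2 of 24 alternatives in all. The standard deviation of *Myh11* among WT libraries (1.68 on the log2 scale) was above that of 97.8% of the genes tested.

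*Tagln* (transgelin, an actin-bundling protein of smooth muscle) lies on chromosome 9 at 45929619 to 45936058, minus strand. It was 130, 266 and 590 in WT and 298, 530 and 760 in rd6. All 6 rd6 libraries were above the WT median, but WT replicate 4 was above 5 of them. Its log2 fold change was 0.85 (SE 0.31, limma q = 0.0631), and without WT replicate 4 it was 1.07 with q = 0.00798. It also passed without rd6 replicate 6 (0.99, q = 0.0401), without the 3 libraries with most corneal RNA (1.01, q = 0.0317) and with DESeq2 on recovered reads (q = 0.0463). It did not pass with edgeR (q = 0.0953), and passed in 4 of 24 alternatives in all. *Tagln* shares 1241 exon bases with an antisense transcript, so its counts are uncertain if reads were counted without regard to strand.

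*Cnn1* (calponin, which binds actin and slows its myosin) was the lowest of the 10 genes, with 8 to 189 reads per library. It was 8.30, 12.4 and 17.7 in WT and 13.9, 22.1 and 180 in rd6. The high value was rd6 replicate 4, and 4 of 6 rd6 libraries were above all WT libraries. Its log2 fold change was 1.29 (SE 0.52, limma q = 0.0922). Without rd6 replicate 4 it was 0.79 with q = 0.0785. On recovered reads of all libraries it was 1.97 with edgeR (q = 0.0403) and 1.98 with DESeq2 (q = 0.00819).

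*Acta2* (smooth muscle α-actin, the thin filament) went the other way from *Myh11*, *Tagln* and *Cnn1* in its mean. It was 4413, 4915 and 5585 in WT and 3518, 3894 and 5580 in rd6. All rd6 libraries but replicate 4 were below every WT library, and replicate 4 was near the WT maximum. The mean difference was -0.29 on the log2 scale (SE 0.11, limma q = 0.0632), and without rd6 replicate 4 it was -0.39 with q = 0.00282. *Acta2* also passed without WT replicate 4 (-0.33, q = 0.0448), without rd6 replicates 4 to 6 (-0.33, q = 0.0246) and with DESeq2 on recovered reads (q = 0.0464). It did not pass with edgeR (q = 0.0761), and passed in 4 of 24 alternatives in all. Near-identical actin genes such as *Actg2* and *Acta1* can share reads with *Acta2*.

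Rd6 replicate 4 was the highest rd6 library for *Myh11*, *Acta2*, *Tagln* and *Cnn1* together, and not for *Des*. The log2 ratio of *Acta2* to *Myh11* was between 2.13 and 7.43 in WT and between 2.17 and 5.27 in rd6. Its mean was lower in rd6 by 4.19-fold, which did not pass the exact permutation test (two-sided p = 0.0519, 0.0649 after Benjamini-Hochberg adjustment over the 5 ratios tested, n = 6). The ratio of *Des* to *Myh11* differed by -0.75 on the log2 scale (exact p = 0.374, adjusted 0.374). It was -1.36 without WT replicate 4, -1.21 without rd6 replicate 2, -0.46 without rd6 replicate 4, -1.41 without rd6 replicates 1 to 3 and -0.09 without rd6 replicates 4 to 6, and passed in none of these. The proportions between these genes thus varied widely from library to library.

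Of 12 other smooth muscle contractile genes 9 were tested, 3 were higher and 2 were lower, with a median log2 fold change of 0.54 against 0.00 over all genes. Without any of the 3 sets of libraries 0 or 1 were higher, and *Lmod1* and *Cald1* were lower each time. *Actg2*, the γ-actin of visceral smooth muscle, was between 1.97 and 3.88 normalized counts in WT and between 3.98 and 120 in rd6 (log2 fold change 1.83, limma q = 0.0496), and the 120 was rd6 replicate 4. *Tpm2* (β-tropomyosin, shared with skeletal muscle) was at 0.89 and *Synpo2* (an actin-bundling protein of the Z-disc) at 0.58. *Lmod1*, which nucleates actin filaments in smooth muscle, was lower in every rd6 library, with 443 to 643 against 865 to 1316 in WT (log2 fold change -0.90, q = 9.38e-05). *Cald1* (caldesmon, present in non-muscle cells too), named after its values were seen, was also lower in every rd6 library (log2 fold change -0.47, q = 0.00189). Of 4 tested transcription factor genes linked to this program, *Mef2c* (0.80, limma q = 0.00226) and *Mrtfa* (0.35, q = 0.0182) were higher and 0 were lower. *Srf* (-0.09, q = 0.436) and *Mrtfb* (0.13, q = 0.329) did not pass. Which cells the *Mef2c* transcripts came from was not tested. Without rd6 replicates 1 to 3 *Mef2c* passed and *Mrtfa* did not. *Myocd*, the smooth muscle coactivator myocardin, was under the limit for testing, at or under 9.55 normalized counts.

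The pericyte genes did not pass the test. *Pdgfrb*, the receptor for PDGF-B on mural cells, was 836, 951 and 1117 in WT and 585, 824 and 920 in rd6. All 6 rd6 libraries were below the WT median and 3 of them, replicates 4 to 6, below every WT library. The log2 fold change was -0.30 (SE 0.12, limma q = 0.0950), and -0.53 with q = 0.0178 without rd6 replicates 1 to 3.

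*Rgs5*, a regulator of G-protein signaling that marks pericytes, was 1756, 2342 and 3402 in WT and 1684, 3065 and 4211 in rd6. Rd6 replicates 1 to 3 were above every WT library and rd6 replicate 4 was below every one, so the groups overlapped on both sides. The log2 fold change was 0.25 (95% interval -0.27 to 0.78, limma q = 0.490), 0.69 without rd6 replicates 4 to 6 and -0.18 without replicates 1 to 3. The log2 ratio of *Rgs5* to *Pdgfrb* was higher in rd6 by 0.55, or 1.47-fold (WT 1.32 ± 0.29, rd6 1.88 ± 0.31, SD, n = 6 each, exact permutation p = 0.0173, adjusted 0.0289). This call was lost without WT replicate 1 (0.53, adjusted p = 0.0505), without WT replicate 2 (0.48, 0.0577), without the 3 libraries with most corneal RNA (0.45, 0.0992) and without rd6 replicates 1 to 3 (0.35, 0.208), all by the exact test.

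Of 12 other pericyte genes 11 were tested, with 3 higher, 1 lower and a median log2 fold change of -0.02. Without rd6 replicates 1 to 3 the counts were 0 and 0, without the 3 libraries with most corneal RNA 1 and 1, and without rd6 replicates 4 to 6 they were 3 and 1. *Kcnj8* and *Abcc9* encode the pore and the sulfonylurea receptor of the ATP-sensitive potassium channel of mural cells. *Kcnj8* was between 366 and 611 in WT and between 633 and 842 in rd6 (log2 fold change 0.57, limma q = 0.00339), without overlap, and *Abcc9* was at 0.46 (q = 0.0288). *Ndufa4l2* was at 0.90 (q = 0.0371), and *Vtn* (vitronectin) was lower at -0.42 (q = 0.0175). Among the ligands of the PDGF receptors, *Pdgfb* was higher, with 178 ± 64.9 in WT and 380 ± 158 in rd6 (log2 fold change 1.07, q = 0.0175), and the other 3 of 4 ligands did not pass. *Pdgfb* did not pass without rd6 replicates 1 to 3, and without the 3 libraries with most corneal RNA *Pdgfb* was higher and *Pdgfa* and *Pdgfc* were lower. Endothelial cells make PDGF-B, and 7 of 10 endothelial markers were also higher and 0 lower. Without rd6 replicates 1 to 3 this count was 0, with a median log2 fold change of 0.39, and without rd6 replicates 4 to 6 it was 10, with a median of 1.26. Their largest changes were in *Cldn5* (1.14), *Plvap* (0.93), *Tie1* (0.90) and *Esam* (0.88). The endothelial sum was between 7940 and 15026 in WT and between 11415 and 27904 in rd6, and the part of endothelial RNA in the level of *Pdgfb* was not tested.

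Among the fibroblast genes, *Pdgfra*, the receptor for PDGF-A and PDGF-C on fibroblasts and glial precursors, lies on chromosome 5 at 75152292 to 75198215, plus strand. It was 318, 451 and 541 in the lowest, median and highest WT library and 151, 227 and 407 in rd6. All rd6 libraries but replicate 3 were below every WT library, and replicate 3 was within the WT range. The mean went from 438 ± 77.4 to 249 ± 95.8 (SD, n = 6 each), which was -0.88 on the log2 scale (SE 0.22, limma q = 0.0123), or 1.84-fold lower. Without rd6 replicates 4 to 6 the value was -0.45 with q = 0.132, and without rd6 replicates 1 to 3 it was -1.31. Transcripts on the opposite strand share 456 and 166 of its exon bases.

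The proportion of *Pdgfra* to *Pdgfrb*, the other PDGF receptor, was lower in rd6. There were 45.7 ± 8.02 counts of *Pdgfra* per 100 of *Pdgfrb* in WT and 30.8 ± 7.19 in rd6 (SD, n = 6 each). The log2 ratio was lower in rd6 by 1.49-fold (exact permutation p = 0.00866, adjusted 0.0216). Rd6 replicate 3, at 44.2, was within the WT range of 34.4 to 57.4, and the other 5 rd6 libraries were below it. The call was lost without rd6 replicates 4 to 6 (-0.37, adjusted exact p = 0.179) and without the 3 libraries with most corneal RNA (-0.55, adjusted exact p = 0.0794). The Schwann cell markers *Sox10* (log2 fold change -0.64), *Mbp* (-0.61) and *Pmp22* (-0.32) also fell, though of these only *Sox10* passed without rd6 replicates 1 to 3 or 4 to 6. Of these, *Sox10* is also expressed in melanocytes and *Pdgfra* in glial precursors, and the part of such cells in the fall of *Pdgfra* was not tested.

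*Dcn* encodes decorin and *Lum* lumican, both small leucine-rich proteoglycans that bind collagen fibrils and regulate their diameter. The genes are neighbours on chromosome 10, on the plus strand, with *Dcn* at 97479609 to 97518143 and *Lum* at 97565128 to 97572703, 46984 bases apart. *Dcn* was 4910, 6692 and 7933 in WT and 2460, 4343 and 6425 in rd6. Rd6 replicates 4 to 6 were below every WT library and replicates 1 to 3 were within the WT range. The log2 fold change was -0.63 (SE 0.23, limma q = 0.0697), -1.15 with q = 0.000935 without replicates 1 to 3, and -0.10 without replicates 4 to 6. It passed without rd6 replicate 1 (q = 0.0325) or rd6 replicate 2 (q = 0.0484) alone.

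*Lum* was 267, 331 and 431 in WT and 279, 515 and 694 in rd6. Here rd6 replicates 1 to 3 were above every WT library and replicates 4 to 6 were within the WT range, the reverse of *Dcn*. The log2 fold change was 0.47 (SE 0.24, limma q = 0.181), 0.98 with q = 0.00201 without replicates 4 to 6, and -0.04 without replicates 1 to 3.

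Neither gene passed the test alone, but the proportion between them separated the genotypes. There were 5.30 ± 1.14 counts of *Lum* per 100 of *Dcn* in WT and 11.2 ± 1.23 in rd6 (SD, n = 6 each). The highest WT library was at 6.68 and the lowest rd6 library at 9.44. The log2 ratio was higher in rd6 by 1.10, or 2.14-fold (exact permutation p = 0.00216, the smallest this design allows, adjusted 0.0108 over 5 ratios). Rd6 replicates 1 to 3 (10.8 to 11.2) and 4 to 6 (9.44 to 13.3) were alike in this proportion, although both genes were about 2 times higher in the first set. The difference was 1.11 without replicates 1 to 3 and 1.08 without replicates 4 to 6, and 1.10 without the 3 libraries with most corneal RNA. A ratio within a library does not depend on how libraries were scaled, and it shows unequal change, not which gene changed.

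**Figure D4:**
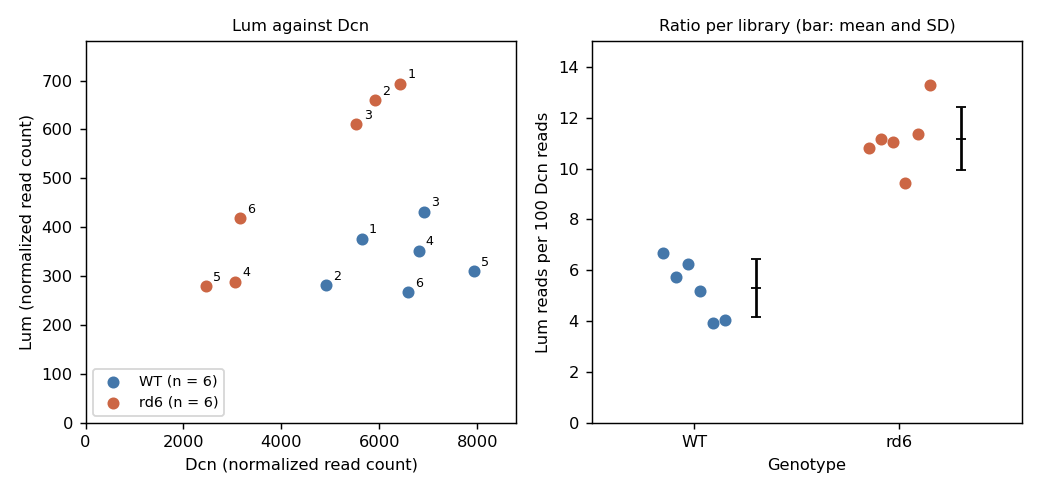
Left, normalized read count of *Lum* against *Dcn* in the 6 WT (blue) and 6 rd6 (orange) libraries, numbered by replicate. Right, *Lum* counts per 100 *Dcn* counts in each library with mean and SD, from 3.91 to 6.68 in WT and from 9.44 to 13.3 in rd6, with no overlap.

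Of 8 other small leucine-rich proteoglycan genes tested, 3 were higher and 0 lower, with a median log2 fold change of 0.65. Of 12 other fibroblast genes 1 was higher and 0 lower, with a median of -0.02, and the difference between these lists was not tested. Both medians moved with the rd6 libraries used. Without rd6 replicates 4 to 6 they were 0.97 and 0.45, with 4 of the proteoglycan genes and 2 of the fibroblast genes higher. Without rd6 replicates 1 to 3 they were 0.36 and -0.38, with 0 genes higher, and *Col1a1*, *Col1a2*, *Col3a1* and *Pi16* were lower. *Bgn* (biglycan, the closest relative of decorin) was 3987 ± 875 in WT and 6900 ± 1825 in rd6 (SD, n = 6 each, log2 fold change 0.77, limma q = 0.00878). *Aspn* (asporin) was at 1.06 (q = 0.0415) and *Omd* (osteomodulin) at 0.94 (q = 0.0381). The fibroblast gene that passed was *Clec3b* (tetranectin) at 0.76 (q = 0.0219), and it did not pass in any of the 3 fits that each left out a set of libraries. The 2 fibroblast genes higher without rd6 replicates 4 to 6 were *Col1a2* and *Mgp*. The collagen genes *Col1a1*, *Col1a2* and *Col3a1*, the bulk of the fibrils, had log2 fold changes of -0.23, -0.16 and -0.55 over all libraries and did not pass. Of 4 tested scleral cartilage-like markers *Cilp* was higher at 0.91, and their sum was between 445 and 962 in WT and between 509 and 1840 in rd6, so these markers also varied between libraries. Their median was 0.95 over all libraries and 0.09, with 0 passing, without rd6 replicates 1 to 3.

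The rd6 libraries were divided in *Pdgfrb*, *Rgs5* and the 3 fibroblast genes, and not in the contractile ones. In rd6 replicates 1 to 3 all values of *Pdgfrb*, *Rgs5*, *Pdgfra*, *Dcn* and *Lum* were above those in replicates 4 to 6, with means 1.36, 1.80, 1.85, 2.06 and 1.99 times higher. The same order held for 7.18% of all genes tested, and the opposite order for 8.08%. Among the WT libraries 0 of the 10 genes had replicates 1 to 3 above replicates 4 to 6, against 9.76% of all genes. In 1 of the 10 (*Cnn1*) they were below, against 8.52% of all genes. The lists of other genes were read after this order was seen. Of the 11 other pericyte genes tested 1 (*Abcc9*) had it and 2 (*Cspg4* and *Vtn*) had the opposite order, so it was not an order of pericyte genes as a whole. It held for 6 of 12 other fibroblast genes, 6 of 8 other proteoglycan genes, 9 of 10 endothelial markers and 0 of 9 other smooth muscle genes, with 0 opposite in these lists. *Xist* and *Ddx3y* did not follow it, since rd6 replicate 3 had 2468 normalized counts of the Y-linked *Ddx3y* like replicates 4 to 6 (1565 to 2977) and unlike replicates 1 and 2. Replicate numbers carry no order, and the division is a description of these 6 libraries. The genes called depended on it. With only rd6 replicates 4 to 6 against WT, *Pdgfrb*, *Pdgfra* and *Dcn* were lower and 0 of the 10 higher, against 6.44% of all genes lower and 6.17% higher. With only replicates 1 to 3 *Lum* was higher and *Acta2* lower, against 8.16% of all genes higher and 8.15% lower.

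**Figure D5:**
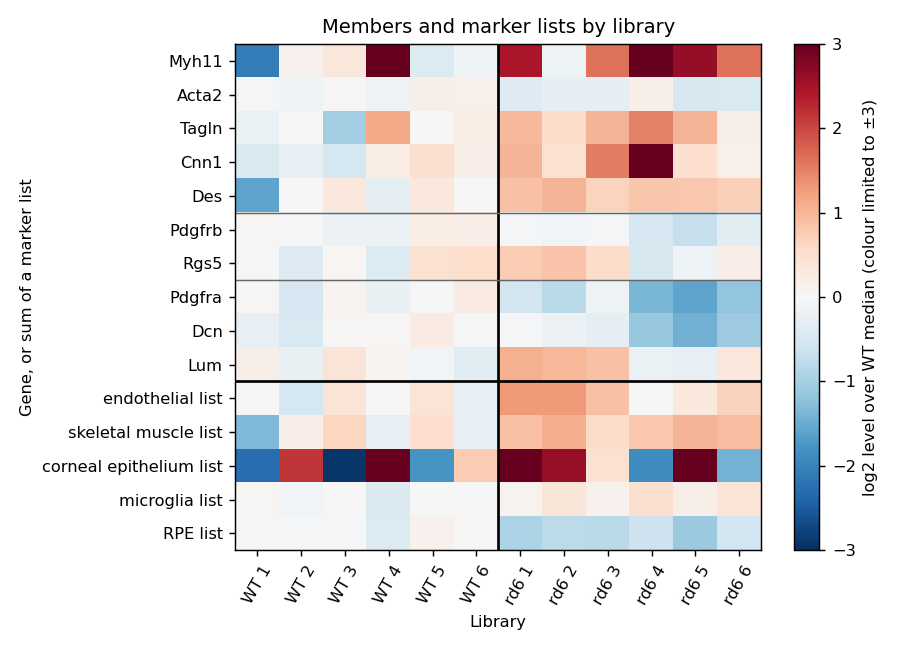
Log2 level of the 10 genes and of the sums of 5 marker lists in each library, over the median of the WT libraries (colours limited to ±3). In rd6 the columns 1 to 3 are redder than 4 to 6 for *Rgs5*, *Dcn* and *Lum* and for the endothelial list, while the corneal list is high in WT 4, rd6 1 and rd6 5.

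Likeness between the genes was measured as Pearson's r between log2 values, centred within each genotype, over the 12 libraries. These r values are a description and carry no test, since all genes of a library share its tissue mixture and depth. The 10 pairs among *Pdgfrb*, *Rgs5*, *Pdgfra*, *Dcn* and *Lum* had r from 0.60 to 0.85, and these are the same 5 genes that shared the division of the rd6 libraries. The contractile genes did not form such a group. Their 10 pairs ran from -0.11 for *Tagln* and *Des* to 0.84 for *Acta2* and *Cnn1*, with *Myh11* and *Tagln* at 0.63 and *Myh11* and *Acta2* at 0.02. *Des* had r between -0.06 and 0.23 with the pericyte and fibroblast genes.

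Among 12874 genes with a mean of at least 100, those most like the pericyte pair were *Bgn* (r 0.99), *Mgp* (0.97), *Ccn5* (0.95), *Lrg1* (0.94) and *Lbp* (0.94). With the summed level of the 12 other pericyte genes the pair had negative r (*Pdgfrb* -0.66, *Rgs5* -0.34), and with the endothelial sum positive r (0.58 and 0.77). The pericyte sum weighs abundant genes most, and *Cspg4* and *Vtn* had the highest means in it. This sum was highest in WT replicate 4 (5270) and rd6 replicate 5 (5371), both among the 3 libraries with most corneal RNA. *Notch3* was also highest there, at 1186 and 728. The negative r therefore need not hold for the pericyte genes singly. The genes most like the fibroblast trio were *Cyyr1* (0.96), *Cped1* (0.96), *Nid1* (0.96), *Crispld2* (0.95) and *Col16a1* (0.95). For the contractile genes the likeness was lower, with *Gm13135* (0.84) and *Myl9* (0.83), the regulatory light chain of smooth muscle myosin, at the head, followed by *Cab39l*, *Lig3* and *H3f3a-ps2*. Taken singly, *Des* was most like *Trim54* (0.97) and *Jsrp1* (0.96), both genes of striated muscle. The skeletal muscle sum had an r of 0.94 with *Des*. *Dcn* was most like *Ccn3* (0.98) and *Lum* most like *Tek* (0.94), the endothelial angiopoietin receptor.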

How the data were processed

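RNA-seq of RPE from 6 WT and 6 rd6 mice was analysed. The authors made stranded total-RNA libraries, aligned and counted the read pairs with Rsubread against mm10 with standard parameters, and normalized with DESeq2; versions are not given in the sources used here. The deposited signal is the read count divided by the size factor of the library. The authors also deposited their own log2 fold changes, a test score and p-values, which were not used. In each library 100% of the values were whole multiples of 1 read (within 0.01), so reads were recovered, and 3 reads are worth 2.71 to 3.32 normalized counts. Floors and totals cover counting error only, since PCR copies are not independent molecules. Of 28596 entries 5 repeated ones were dropped. All 12 columns were matched to samples by name, and no library was a copy of another (in all 66 pairs the chi-square per gene was at least 9.45).

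Genes with a mean of at least 10 (17768) were compared on log2(value + 1) with limma 3.58.1 (R 4.3.3, eBayes with trend, genotype only, all libraries), with q from the Benjamini-Hochberg adjustment over all of them. Fold changes on this scale understate those of low genes. Ratios of 2 genes were compared with the exact permutation test over 924 splits, two-sided (Python 3.11.15, scipy 1.17.1), whose smallest p is 0.00216. The scripts were tested on simulated data. Alternatives were pseudocounts of 0.1 and 10, other filters, TMM and upper-quartile rescaling, edgeR 4.0.16 and DESeq2 1.42.0 on recovered reads, a replicate block and leaving out each library. Leaving out WT replicate 4 with rd6 replicates 1 and 5, rd6 replicates 1 to 3, or rd6 replicates 4 to 6 was added after seeing the data. Gene positions are from GENCODE M21.

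The 10 genes and the marker lists were chosen with earlier results of these data known. From each list up to 4 called genes with the largest change are named, otherwise those with the highest mean; some genes this rule selects, and list totals that hold them, are not reported here. Replicates are separate samples by their labels, and where these do not name separate animals p-values measure only the spread between samples. Equal replicate numbers across genotypes do not mark 1 animal.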

Additional observations from a re-analysis of the deposited data

Results flagged for a closer look

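In 3 of the 20 groups formed by the 10 genes and 2 genotypes, 1 library was far from the other 5 by Dixon's test. The test used normalized counts, not log2 values. Chance gives such a result in about 1 of 20 groups if values are normally distributed and groups independent. The groups here share libraries, so that rate is only a rough guide. *Myh11* was 1008 normalized counts in WT replicate 4, against 26.6 to 147 in the other WT libraries. *Cnn1* was 180 in rd6 replicate 4, against 13.9 to 38.0 in the other rd6 libraries. *Acta2* was 5580 in rd6 replicate 4, against 3518 to 4052 in the others. WT replicate 4 also had the highest sum of corneal markers, 214936, and rd6 replicate 4 a low one, 665. The part of these tissues in the values was not tested.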

How the results depend on the processing

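Of 239 values of single genes under 21 planned and 3 added alternatives, 216 kept their direction and their side of the threshold, 17 passed it newly, 4 lost it and 2 reversed. Without rd6 replicates 1 to 3 *Rgs5* reversed to -0.18 and *Lum* to -0.039. *Des* passed in 21 of 24 alternatives and *Pdgfra* in 23 of 24. The count of members called, 1 higher and 1 lower, was 2 higher with edgeR, 3 higher and 2 lower with DESeq2, 2 higher without WT replicate 4 and rd6 replicates 1 and 5, and 0 higher and 3 lower without rd6 replicates 1 to 3. Leaving out single libraries gave 1 to 3 higher and 1 to 2 lower. Over all genes there were 2024 higher and 2062 lower, 1981 and 2085 with edgeR, and 2276 and 2433 with DESeq2. There were 1925 and 2062 without WT replicate 4 and rd6 replicates 1 and 5, and 1097 and 1145 without rd6 replicates 1 to 3. Single libraries left out gave 1631 to 2428 higher and 1593 to 2293 lower over all genes, with the most calls without WT replicate 4. Upper-quartile rescaling gave 2453 and 1598 and moved the median of all genes by 0.04. Of 85 alternatives for ratios without a replicate block 77 kept their call. With the replicate block the ratios *Lum* to *Dcn* (1.10), *Pdgfra* to *Pdgfrb* (-0.58) and *Rgs5* to *Pdgfrb* (0.55) had an adjusted exact p of 0.0521, each at the smallest p that 6 pairs allow (0.0312), so this says nothing of their stability. In this block *Des* had q = 0.0350 and *Pdgfra* q = 0.0260, no member changed its call, and 1453 genes were higher and 1489 lower. Same-numbered libraries did not deviate together (correlations from -0.74 to 0.31), so the numbers do not pair them. *Rgs5* to *Pdgfrb* ranged from 0.48 to 0.66 over single libraries left out, and did not pass without WT replicate 4 and rd6 replicates 1 and 5 (0.45) or without rd6 replicates 1 to 3 (0.35). *Pdgfra* to *Pdgfrb* lost its call in the former set (-0.55) and without rd6 replicates 4 to 6 (-0.37). *Acta2* to *Myh11* ranged from -2.69 to -1.63 with single libraries left out, passing without WT replicate 4 or rd6 replicate 2, and was -1.47 without rd6 replicates 4 to 6. The cause was not tested. *Cnn1* has no value where 10 counts are required in every library. Depth limits *Cnn1*, with 8 to 189 reads, and *Actg2*.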

Other observations

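Outside the wall and stroma genes, other cell types in the same libraries differed between the genotypes. Of 8 microglia and macrophage markers 7 were higher in rd6 and 0 lower, with the largest log2 fold changes in *P2ry13* (4.67), *Trem2* (4.37), *P2ry12* (4.23) and *Cx3cr1* (3.44) by limma. *Trem2*, a lipid-sensing receptor of microglia, went from 51.6 ± 12.4 to 1127 ± 383 normalized counts (SD, n = 6 each). The rod transcription factor gene *Nrl* was lower at -1.10, but did not pass without rd6 replicates 1 to 3. It passed without rd6 replicates 4 to 6 and without the 3 libraries with most corneal RNA. Of 8 RPE markers *Lrat* (-0.98), *Rgr* (-0.88), *Rpe65* (-0.79) and *Rlbp1* (-0.46), all genes of the visual cycle, were lower, and *Rlbp1* did not pass without rd6 replicates 1 to 3. *Kera*, which encodes keratocan and follows *Lum* on chromosome 10 after 34175 bases, was too low for the test, at 5.38 ± 2.55 normalized counts in WT and 14.5 ± 7.78 in rd6 (SD, n = 6 each).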
